A study of Homo sapiens with 24 samples.

Results

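CCPG1 and 9 further genes of autophagy were followed across lymphoma cell lines, times and artesunate treatment. The 10 genes were MAP1LC3B, GABARAPL1, GABARAPL2, WIPI1, ULK1, SQSTM1, NBR1, OPTN, RTN3 and CCPG1, of 20045 genes with a symbol on the array. CCPG1 was chosen by its 12 h difference between artesunate and control, so its values at 12 h and in the arrays that enter them are given as a description without a test. The other genes were added as parts of the same pathway, with earlier results of these data known, so counts of them are a description. Members were found by the symbol in the array's probe annotation, which gave 18 probes, and 13 of these, from 9 genes, were detected on at least 2 arrays and were tested.

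The RNA came from BL-41, a Burkitt lymphoma line, and from SU-DHL-4 and Oci-Ly-2, lines of diffuse large B-cell lymphoma of the germinal centre type. Each line was sampled untreated at 0 h, after 4 h with 5 μM artesunate, an artemisinin derivative, and after 12 h without and with 5 μM artesunate. The labels call the controls untreated, whereas the study's text mentions vehicle. The 12 groups had 2 arrays each, described as technical replicates, so that p-values measure only the spread between arrays, and Burkitt lymphoma rests on 1 established line. No 4 h control was among the samples, and the 4 h arrays were set against the 0 h control, so that artesunate and time in culture cannot be told apart at 4 h.

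In autophagy, a double membrane closes around cargo and delivers it to the lysosome. The ULK1 kinase complex starts the process, WIPI proteins bind the lipid made at the forming membrane, and proteins of the LC3 and GABARAP family are then coupled to that membrane. Cargo receptors such as SQSTM1, NBR1 and OPTN bind ubiquitin-marked cargo and LC3 or GABARAP proteins together. In ER-phagy the cargo is a piece of endoplasmic reticulum (ER), and membrane proteins of the ER, among them CCPG1, RTN3 and RETREG1, act as receptors. CCPG1 also binds RB1CC1, a subunit of the ULK1 complex, and its transcript is known to be induced by ER stress.

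The arrays were similar in quality. The number of probes detected, that is with a signal above the negative controls at a detection p under 0.05, was between 16156 and 18171 per array, and the 2 arrays of a group correlated at r of 0.986 to 0.993 over the tested probes. The B-cell genes MS4A1, CD79A, CD79B, CD22, BCL6 and MME were detected on all 24 arrays, and the PAX5 probe was detected on none. CD3D, CD3E and HBB were detected on none, while LYZ and SDC1 were detected on 7 or 8 of the 8 arrays of each line and CD14, NCAM1 and EPCAM on 0 to 3. The number of arrays limits the precision of every value given here.

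The promoters of CCPG1, of MAP1LC3B, the member that passed the test in BL-41 and Oci-Ly-2 at 12 h, and of GABARAPL1, the member promoter that held a searched motif, show what was searched. They are RefSeq sequences of build GRCh38.p14, 300 bases each, from 250 bases before to 50 bases after the start, at chr15:55408310-55408609 on the minus strand for CCPG1, chr16:87392086-87392385 on the plus strand for MAP1LC3B and chr12:10212627-10212926 on the plus strand for GABARAPL1. Capitals mark a match to a searched motif.
CCPG1: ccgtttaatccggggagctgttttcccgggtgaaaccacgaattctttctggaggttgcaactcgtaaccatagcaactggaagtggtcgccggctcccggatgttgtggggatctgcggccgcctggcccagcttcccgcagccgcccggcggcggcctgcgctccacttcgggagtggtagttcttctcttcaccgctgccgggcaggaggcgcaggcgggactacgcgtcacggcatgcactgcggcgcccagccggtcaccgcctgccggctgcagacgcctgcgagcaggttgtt
MAP1LC3B: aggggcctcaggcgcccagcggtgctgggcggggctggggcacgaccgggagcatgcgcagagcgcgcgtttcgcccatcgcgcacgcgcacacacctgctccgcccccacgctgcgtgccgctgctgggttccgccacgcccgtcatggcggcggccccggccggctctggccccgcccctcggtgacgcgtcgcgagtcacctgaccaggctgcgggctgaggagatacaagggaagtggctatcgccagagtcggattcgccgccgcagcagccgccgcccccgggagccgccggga
GABARAPL1: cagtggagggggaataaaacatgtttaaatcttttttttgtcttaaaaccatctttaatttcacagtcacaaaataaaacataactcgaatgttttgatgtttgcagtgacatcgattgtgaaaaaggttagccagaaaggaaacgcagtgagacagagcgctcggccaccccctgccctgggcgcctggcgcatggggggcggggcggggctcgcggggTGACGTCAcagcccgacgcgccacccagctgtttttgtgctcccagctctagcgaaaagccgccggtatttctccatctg
Searched on both strands were TGATGNAAN, the element bound by dimers of C/EBP and ATF proteins, TGACGTCA, the cyclic AMP response element, and the CLEAR element, a palindrome bound by TFEB. No motif is contained in another. The table held 14 promoters for the 10 members, since SQSTM1, OPTN and NBR1 had several. TGACGTCA stood in 1 of the 14, that of GABARAPL1, at positions -30 to -23 from the start, and in 1.85% of all 35116 promoters. TGATGNAAN and the CLEAR element stood in 0 of the 14, against 3.61% and 0.353% of all promoters. A match is a description of letters, and the lack of a match covers only these letters in this window.

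At 12 h, CCPG1 was higher with artesunate in all 3 cell lines. Levels are log2 signals after background subtraction and quantile normalization, and a difference of 1 is a doubling. In BL-41 the CCPG1 probe ILMN_1794190 read 5.09 and 4.96 in the 12 h controls and 7.08 and 6.93 with artesunate. In SU-DHL-4 it read 5.51 and 5.48 in the controls and 7.56 and 8.27 with artesunate. In Oci-Ly-2 the controls read 4.36 and 4.37, both not above background, and the treated arrays read 5.57 and 6.27. The treated arrays lay above every control array of their own line, and the 2 treated arrays of SU-DHL-4 and of Oci-Ly-2 stood further apart than those of BL-41. With artesunate CCPG1 was 3.94-fold higher in BL-41, a log2 difference of 1.98, and 5.33-fold higher in SU-DHL-4, a log2 difference of 2.41. For Oci-Ly-2 only a lower bound of at least 2.16-fold can be given, which sets the treated mean against the detection limit of the control arrays. With the deposited processed values, which have no background subtraction, SU-DHL-4 had a log2 difference of 1.38 and BL-41 one of 0.91. As each array read RNA from many cells, more cells with the transcript and more transcript per cell cannot be told apart. The second CCPG1 probe, ILMN_2409290, was detected on 0 of 24 arrays and has no value. A readthrough transcript, DNAAF4-CCPG1, spans the gene, and which of them the probes read was not tested.

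**Figure D1:**
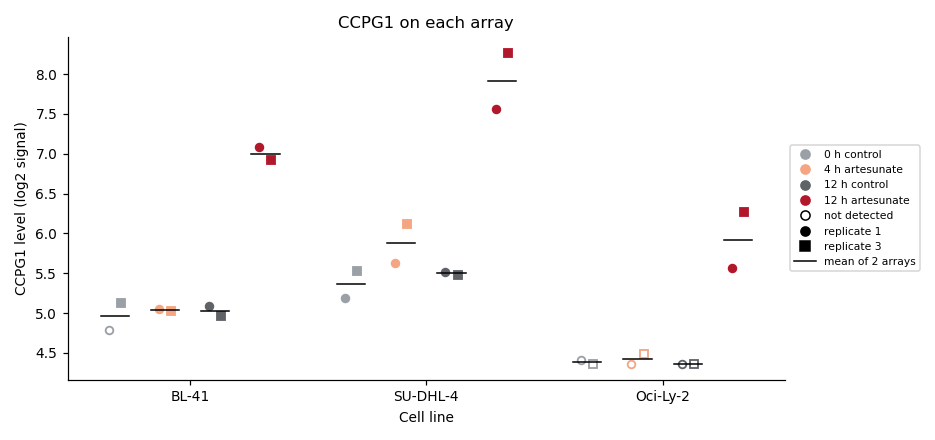
CCPG1 level (log2 signal, vertical axis) on each of the 24 arrays, by cell line, with points for the 2 replicates of a condition, open where the probe was not detected, and lines for their means. The 12 h artesunate arrays read 6.93 and 7.08 for BL-41, 7.56 and 8.27 for SU-DHL-4, then 5.57 and 6.27 for Oci-Ly-2, each above all other arrays of its line.

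At 4 h CCPG1 did not pass the test in any line. BL-41 read 4.79 and 5.13 at 0 h and 5.05 and 5.03 after 4 h of artesunate, a log2 difference of 0.08 ± 0.23 (SE, n = 2 against 2; limma adjusted p = 0.971). SU-DHL-4 read 5.20 and 5.53 at 0 h and 5.63 and 6.12 at 4 h, so that the groups did not overlap, but the difference of 0.52 ± 0.23 did not pass the test (limma adjusted p = 0.395). Oci-Ly-2 was not above background on any of these 4 arrays. Between the 0 h and 12 h controls CCPG1 differed by 0.06 for BL-41 and 0.14 for SU-DHL-4. Over its 4 untreated arrays CCPG1 read 5.43 ± 0.16 (SD) in SU-DHL-4 and 4.99 ± 0.15 in BL-41, where 3 of 4 arrays detected it, and it was not above background on any untreated array of Oci-Ly-2. The untreated arrays of SU-DHL-4 and BL-41 did not overlap. SU-DHL-4 was at least 1.56-fold and BL-41 at least 1.15-fold above Oci-Ly-2, and the order of the lines in untreated cells, SU-DHL-4 over BL-41 over Oci-Ly-2, was also their order at 12 h with artesunate.

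Of the other members, MAP1LC3B and OPTN rose in Oci-Ly-2 at 12 h, and MAP1LC3B also in BL-41. A gene passed the test with a log2 difference beyond 0.5 either way and an adjusted p (Benjamini-Hochberg, over all tested probes) below 0.01, the thresholds of the study's methods. In BL-41, 1 of the 8 other tested members passed, MAP1LC3B, against 1.98% of all 12908 genes tested. In SU-DHL-4, 0 of 8 passed by limma, against 1.26% of all genes. In Oci-Ly-2, 2 of 8 passed, MAP1LC3B and OPTN, against 4.21% of all genes. All these calls were increases. At limma p under 0.05 without adjustment there were 1, 3 and 4 of the 8 in BL-41, then SU-DHL-4, then Oci-Ly-2. The shares of all genes were 15.6%, 16.8% and 22.2%. The median log2 difference of the 8 genes was 0.25 for BL-41, 0.22 for SU-DHL-4 and 0.43 for Oci-Ly-2, beside medians over all genes of 0.01, 0.02 and 0.03. With 8 genes, each call moves the share by 12.5%, and the shares carry no test. The share of all probes whose 2 arrays per group did not overlap was not computed. A lack of overlap, here and for every other gene named, is therefore only a description and adds nothing to a test.

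**Figure D2:**
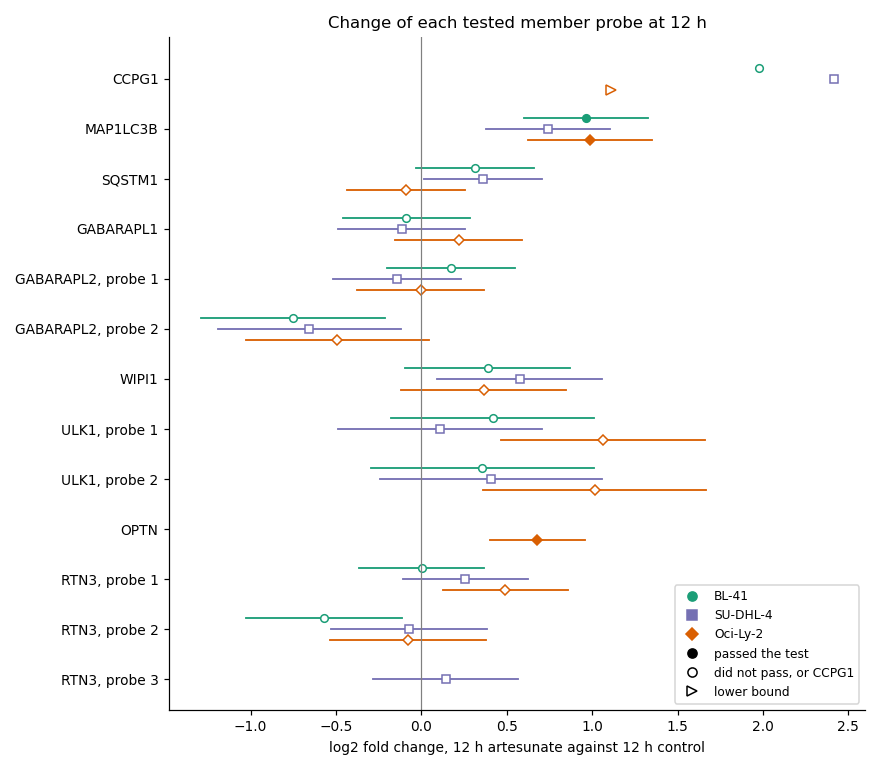
Log2 difference at 12 h between artesunate and control (horizontal axis) for the 13 tested member probes in each cell line, with 95% intervals of the fit, filled symbols where the test was passed, no interval for CCPG1, and a triangle for the lower bound of CCPG1 in Oci-Ly-2. Probes not detected in either group are left out, MAP1LC3B lies between 0.74 and 0.99 in the 3 lines, and probe 2 of GABARAPL2 lies below 0 in all 3.

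Of the LC3 and GABARAP family, MAP1LC3B rose. MAP1LC3B encodes LC3B, the protein whose lipid-coupled form marks autophagosomes. BL-41 read 8.36 and 8.49 in the 12 h controls and 9.56 and 9.22 with artesunate, an increase of 0.96 ± 0.17 (SE) or 1.95-fold (limma adjusted p = 0.00264). Oci-Ly-2 read 7.69 and 7.70 in the controls and 8.47 and 8.91 with artesunate, an increase of 0.99 ± 0.17 or 1.99-fold (limma adjusted p = 0.00135). SU-DHL-4 read 7.96 and 7.97 in the controls and 8.51 and 8.90 with artesunate, a difference of 0.74 ± 0.17 that missed the threshold (limma adjusted p = 0.0229). No treated array overlapped a control array in any line, which is a description only. With the cell line as the replicate, in a limma fit to the 6 group means at 12 h, MAP1LC3B rose by 0.90 ± 0.10 (adjusted p = 0.00247), higher in 3 of 3 lines. The call in BL-41 was lost without control replicate 1 (0.90), control replicate 3 (1.03) or artesunate replicate 1 (0.79), and that in Oci-Ly-2 without control replicate 1 (0.98), control replicate 3 (0.996) or artesunate replicate 3 (0.77). MAP1LC3B2 is a near-identical copy, named for that reason once its values had been seen. Its own probe gave differences of -0.13 for BL-41, 0.09 for SU-DHL-4, where no array of the comparison detected it, and -0.14 in Oci-Ly-2, and none passed the test. In BL-41 and Oci-Ly-2 only 1 of the 2 arrays of each 12 h group detected it, so these values are near background. How far the MAP1LC3B probe also reads the copy was not tested.

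GABARAPL1 and GABARAPL2, ubiquitin-like proteins of the GABARAP branch, had no call in any single line at 12 h. GABARAPL1 differed by -0.09 in BL-41, where its controls read 5.63 and 5.74 and its treated arrays 5.49 and 5.70, and by 0.22 in Oci-Ly-2, where they read 5.50 and 5.24 against 5.38 and 5.80, with overlapping groups in both lines. In SU-DHL-4 only 1 of the 8 arrays detected GABARAPL1, a 12 h control. GABARAPL1 has a close relative, the pseudogene GABARAPL3, whose reading by this probe was not tested. The bright GABARAPL2 probe, ILMN_1796458, differed by 0.18 for BL-41, -0.14 for SU-DHL-4 and -0.004 for Oci-Ly-2, each under its standard error of 0.18. The dim GABARAPL2 probe, ILMN_2046315, was lower with artesunate on every array than in the 12 h controls of its line. BL-41 read 5.99 and 6.49 in the controls and 5.29 and 5.67 with artesunate, SU-DHL-4 read 6.36 and 6.38 against 5.82 and 5.61, and Oci-Ly-2 read 6.05 and 5.93 against 5.90 and 5.10. How many of all probes separate in this way was not computed. The differences of -0.75, -0.66 and -0.49 had limma adjusted p values of 0.134, 0.199 and 0.315, and none passed. With the cell line as the replicate this probe fell by 0.63 ± 0.10 (limma adjusted p = 0.00865), while the bright probe changed by 0.01 ± 0.10. The dim probe was also 0.52, 0.53 and 0.38 higher in the 12 h than in the 0 h controls of BL-41, then SU-DHL-4, then Oci-Ly-2, and its mean with 12 h of artesunate, 5.48, 5.71 and 5.50, was close to that at 0 h, 5.72, 5.83 and 5.61. The call for GABARAPL2 thus rests on 1 of 2 probes.

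**Figure D3:**
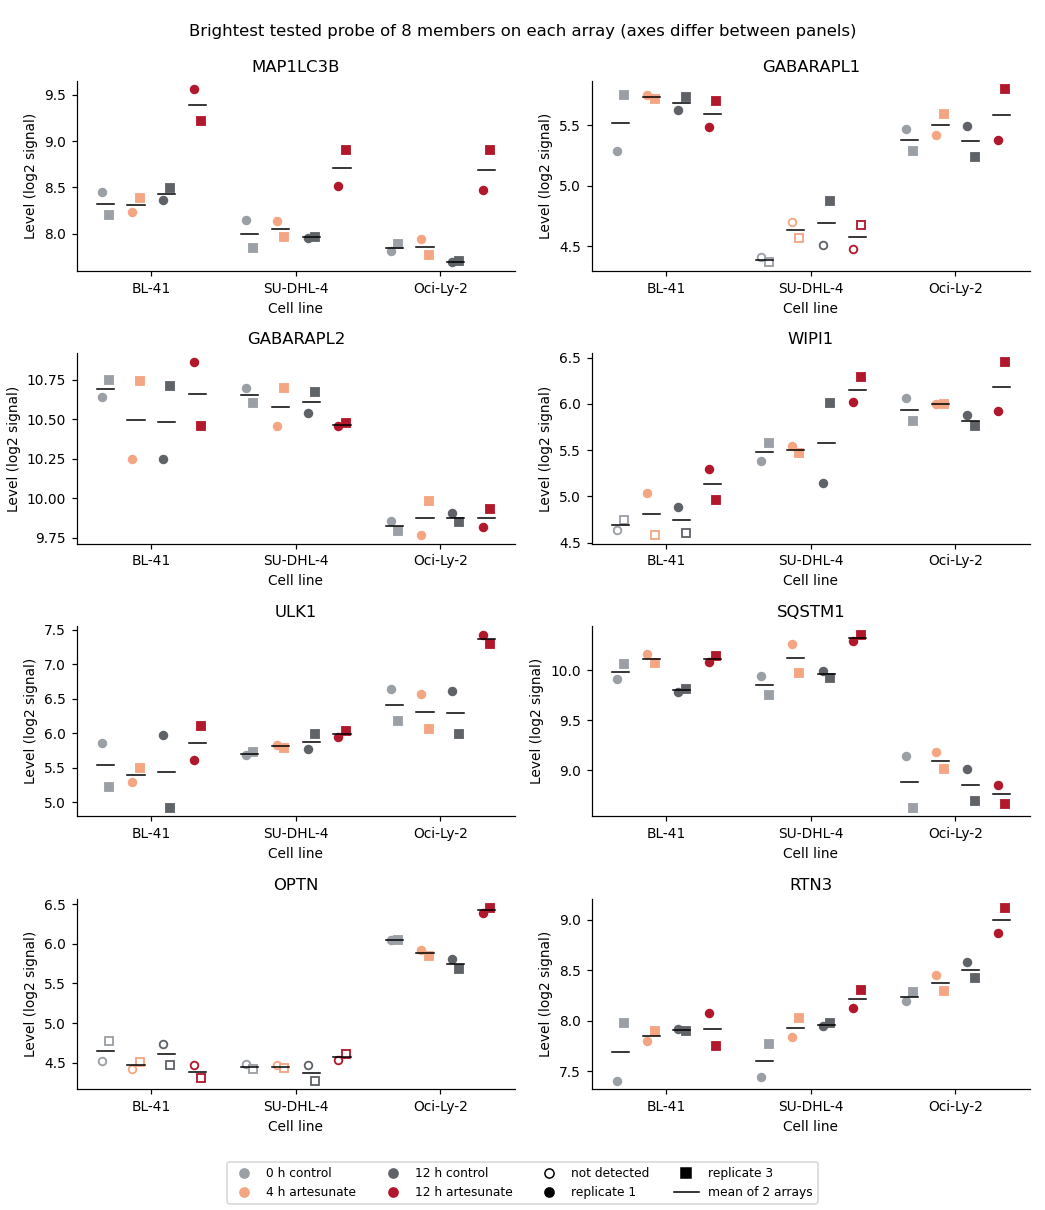
Level (log2 signal, vertical axis, a different range in each panel) of the brightest tested probe of 8 members on each of the 24 arrays, with points for the 2 replicates, open where not detected, and lines for their means. MAP1LC3B is highest at 12 h with artesunate in each line, and OPTN is detected in Oci-Ly-2 alone.

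WIPI1 and ULK1 act early in the formation of the autophagosome. WIPI1 read 4.88 and 4.60 in the 12 h controls of BL-41 against 5.30 and 4.96 with artesunate, 5.15 and 6.004 against 6.02 and 6.29 in SU-DHL-4, and 5.88 and 5.76 against 5.92 and 6.45 in Oci-Ly-2. Every treated array lay above both controls of its line, in each line by little for the lowest of them, which is a description only. In BL-41 only 1 of the 2 controls detected WIPI1. The differences of 0.39, 0.58 and 0.37 had limma adjusted p values of 0.492, 0.211 and 0.436, and with the cell line as the replicate the difference of 0.44 ± 0.10 had an adjusted p of 0.0293, so that WIPI1 passed no test. ULK1, the kinase of the starting complex, had 2 tested probes. In Oci-Ly-2 the probe ILMN_1705144 read 6.61 and 5.99 in the controls and 7.43 and 7.30 with artesunate, a difference of 1.06 ± 0.29 (limma adjusted p = 0.0282). The probe ILMN_1735052 read 6.44 and 5.71 against 7.10 and 7.07, a difference of 1.01 ± 0.31 (limma adjusted p = 0.056). Both probes put the treated arrays above the controls, whose 2 replicates lay far apart, and neither passed the threshold. In BL-41 and SU-DHL-4 the ULK1 probes differed by 0.11 to 0.42. With the cell line as the replicate they gave 0.53 ± 0.16 and 0.59 ± 0.14 (limma adjusted p = 0.0888 and 0.0342). The remaining ULK1 probe was detected on no array.

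Of the cargo receptors, OPTN rose in Oci-Ly-2. OPTN encodes optineurin, which takes part in the removal of mitochondria and bacteria. Oci-Ly-2 read 5.81 and 5.69 in the 12 h controls and 6.40 and 6.46 with artesunate, an increase of 0.68 ± 0.13 or 1.60-fold (limma adjusted p = 0.0034). The 0 h controls of this line read 6.05 and 6.04, between the 12 h controls and the treated arrays. Set against the mean of both controls the increase was 0.53 (limma adjusted p = 0.00524). In BL-41 and SU-DHL-4 OPTN was not above background on any array, so neither a fold nor a difference in response is given there. The call in Oci-Ly-2 was lost without any single array of the contrast, with increases of 0.74 without control replicate 1, 0.62 without control replicate 3, 0.71 without artesunate replicate 1 and 0.65 without artesunate replicate 3.

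SQSTM1, which encodes p62, differed little at 12 h. BL-41 read 9.78 and 9.81 in the controls and 10.08 and 10.14 with artesunate, SU-DHL-4 read 9.99 and 9.92 against 10.29 and 10.35, and Oci-Ly-2 read 9.01 and 8.69 against 8.86 and 8.66. The groups did not overlap in BL-41 and SU-DHL-4, which is a description only. The differences of 0.32, 0.36 and -0.09 had limma adjusted p values of 0.409, 0.283 and 0.862. NBR1, a receptor related to SQSTM1, was detected on 0 of 24 arrays by either of its 2 probes and has no value.

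RTN3, whose long form is an ER-phagy receptor of ER tubules, had 4 probes for transcript variants, of which 3 were tested. The brightest, ILMN_2363065, read 8.58 and 8.43 in the 12 h controls of Oci-Ly-2 and 8.87 and 9.12 with artesunate, a difference of 0.49 ± 0.18 (limma adjusted p = 0.105). It differed by 0.00 for BL-41 and 0.26 for SU-DHL-4. ILMN_2320906 read 5.94 and 5.65 in the controls of BL-41 and 5.38 and 5.06 with artesunate, a difference of -0.57 ± 0.22 (limma adjusted p = 0.199), and differed by -0.07 for SU-DHL-4 and -0.08 for Oci-Ly-2. The remaining tested probe was detected on 3 of 24 arrays. The brightest probe and ILMN_2320906 thus had opposite signs for SU-DHL-4 and also for Oci-Ly-2, without a call, and which variant encodes the receptor form was not resolved by the probe annotation used here.

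No member passed the test at 4 h or between the controls. At 4 h, 0 of the 9 tested members passed in each line, against 0% of all genes for BL-41, 0.0232% for SU-DHL-4 and 0% for Oci-Ly-2 with limma. At p under 0.05 without adjustment there were 0, 1 and 0 members, against 7.69%, 9.47% and 6.39% of all genes. The member in SU-DHL-4 was CCPG1. MAP1LC3B differed by -0.01, 0.05 and 0.00 at 4 h in BL-41, then SU-DHL-4, then Oci-Ly-2. Between the 12 h and 0 h controls, 0 of 8 members besides CCPG1 passed in each line, against 0% of all genes in each. At an unadjusted p under 0.05 there were 0, 0 and 1 members, against 6.1%, 9.34% and 4.4% of all genes. The member in Oci-Ly-2 was OPTN, with a difference of -0.30.

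The 12 h responses of the lines were compared directly. Of the 8 members besides CCPG1, 0 passed for any pair of lines. The shares of all genes were 0.108% for BL-41 with SU-DHL-4, 0.194% for BL-41 with Oci-Ly-2 and 0.0155% for SU-DHL-4 with Oci-Ly-2. At an unadjusted p under 0.05 limma gave 1, 1 and 2 members, against 6.82%, 6.93% and 7.57% of all genes. OPTN, not above background in BL-41 or SU-DHL-4, was counted each time, and for BL-41 with SU-DHL-4 both sides were at background. For ULK1 the response of SU-DHL-4 minus that of Oci-Ly-2 was -0.95 with a 95% interval from -1.80 to -0.11 by the probe ILMN_1705144 (limma adjusted p = 0.592). The intervals were wide, and a difference that missed the threshold does not show that the lines responded alike. With the cell line as the replicate, 2 of 8 members passed, MAP1LC3B upward and GABARAPL2 downward by its dim probe, against 2.52% of all genes. The call of GABARAPL2 was lost without any single line, and that of MAP1LC3B without Oci-Ly-2, when 0 members passed.

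Members also differed between the lines before treatment. With the 4 untreated arrays of each line, 7 of 8 members passed between BL-41 and Oci-Ly-2, against 26.4% of all genes, 5 of 8 between SU-DHL-4 and Oci-Ly-2, against 26.4%, and 2 of 8 between BL-41 and SU-DHL-4, against 26.3%. OPTN, detected in Oci-Ly-2 alone, is among the 7 and among the 5. SQSTM1 read 9.89 ± 0.13 (SD, n = 4) for BL-41, 9.90 ± 0.10 for SU-DHL-4 and 8.86 ± 0.25 for Oci-Ly-2. It was 2.04-fold and 2.06-fold higher in BL-41 and SU-DHL-4 than in Oci-Ly-2 (limma adjusted p = 5.57e-07 and 4.36e-07), while BL-41 and SU-DHL-4 did not differ beyond their spread. GABARAPL2 by its bright probe followed the same order, with 10.59 ± 0.23, 10.63 ± 0.07 and 9.85 ± 0.05, and was 1.67-fold and 1.71-fold higher in BL-41 and SU-DHL-4 than in Oci-Ly-2 (limma adjusted p = 0.000101 and 5.27e-05). Its dim probe showed no call between lines. MAP1LC3B was highest in BL-41 at 8.37 ± 0.13, against 7.98 ± 0.13 for SU-DHL-4 and 7.77 ± 0.09 for Oci-Ly-2, and BL-41 was 1.52-fold above Oci-Ly-2 (limma adjusted p = 0.000626), with no call between neighbours in that order.

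Other members were highest in Oci-Ly-2 before treatment. OPTN read 5.90 ± 0.18 there and was not above background on any untreated array of BL-41 or SU-DHL-4. It was at least 2.13-fold higher than in BL-41 and at least 2.09-fold higher than in SU-DHL-4. As its probe was detected on 8 of 24 arrays, all from Oci-Ly-2, it was tested only through the line where it was high. No p-value is given for these bounds. WIPI1 read 5.88 ± 0.13 in Oci-Ly-2, 5.53 ± 0.36 in SU-DHL-4 and 4.72 ± 0.13 in BL-41, where 1 of 4 arrays detected it. BL-41 was lower than Oci-Ly-2 by 1.16 and lower than SU-DHL-4 by 0.81 on the log2 scale (limma adjusted p = 9.69e-06 and 0.000528). ULK1 by the probe ILMN_1705144 read 6.36 ± 0.32 in Oci-Ly-2, 5.80 ± 0.14 in SU-DHL-4 and 5.50 ± 0.50 in BL-41, and passed between BL-41 and Oci-Ly-2 only, 1.82-fold (limma adjusted p = 0.00216). RTN3 by its brightest probe read 8.37 ± 0.17 in Oci-Ly-2 against 7.80 ± 0.26 for BL-41 and 7.78 ± 0.25 for SU-DHL-4, 1.48-fold and 1.5-fold higher (limma adjusted p = 0.00111 and 0.000826). GABARAPL1 stood apart in its order, with 5.60 ± 0.21 for BL-41, 5.37 ± 0.13 for Oci-Ly-2 and 4.54 ± 0.23 for SU-DHL-4, where 1 of 4 untreated arrays detected it, and SU-DHL-4 was 2.08-fold below BL-41 and 1.78-fold below Oci-Ly-2 (limma adjusted p = 1.03e-06 and 2.23e-05).

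The rest of the pathway was read from 10 lists, which hold 72 genes besides the members, of which 67 were tested. At 12 h, 1 of 67 passed for BL-41, 1 for SU-DHL-4 and 3 for Oci-Ly-2, all upward, which are 1.49%, 1.49% and 4.48% of the genes against 1.98%, 1.26% and 4.21% of all genes. These shares were close to the background in each line, and the call in SU-DHL-4 came from a probe tested only through treated arrays. At p under 0.05 without adjustment there were 11, 12 and 21 of the 67, which are 16.4%, 17.9% and 31.3% against 15.6%, 16.8% and 22.2% of all genes. At 4 h, 0 of 67 passed limma's test in each line, with 6, 6 and 4 genes at p under 0.05 without adjustment, 8.96%, 8.96% and 5.97% against 7.69%, 9.47% and 6.39% of all genes. The median log2 difference of the 67 genes at 12 h was 0.01, 0.10 and 0.10, against 0.01, 0.02 and 0.03 over all genes. None of the tested genes of the ULK1 complex (5), of the PI3K complex (8), of ATG9, ATG2 and WIPI proteins (10), of the mitophagy receptors (7), of fusion with the lysosome (11) or of the regulators TFEB, TFE3, MITF and TBK1 (3 tested) passed at 12 h in any single line. Without adjustment, 6 of the 7 mitophagy receptors had limma p under 0.05 in Oci-Ly-2, against 22.2% of all genes. Their median log2 difference there was 0.47, beside 0.03 over all genes. In BL-41 and SU-DHL-4 the count was 1 of 7 each, against 15.6% and 16.8%. This list was singled out of the 10 after its values were seen.

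Among the ER-phagy receptors besides CCPG1, 8 genes were tested and RETREG1 alone passed at 12 h, in Oci-Ly-2 and SU-DHL-4. RETREG1, also named FAM134B, shapes and clears sheets of the ER. Its brightest probe, ILMN_2387952, read 6.63 and 6.64 in the 12 h controls of SU-DHL-4 against 7.47 and 7.42 with artesunate, and 5.78 and 5.43 in Oci-Ly-2 against 6.72 and 6.82. In BL-41 RETREG1 was not above background on any array by any of its 3 probes. In Oci-Ly-2 ILMN_2387952 rose by 1.17 ± 0.20 (limma adjusted p = 0.00101). It was also 0.62 higher in the 12 h than in the 0 h controls of this line, without a call (limma adjusted p = 0.818). The probe ILMN_2283597 passed in Oci-Ly-2 too. Its 12 h controls there were not above background, and the treated arrays were at least 2.17-fold higher. That call was lost without any single array of the contrast. In SU-DHL-4 the difference of ILMN_2387952, 0.81 ± 0.20, missed the threshold (limma adjusted p = 0.0301). The call there came from the dimmest probe, ILMN_1811330, with a rise of 0.84 ± 0.17 (limma adjusted p = 0.00999). It read 4.94 and 4.38 in the controls, the lower of them not above background, and 5.64 and 5.36 with artesunate. Apart from 12 h artesunate arrays, only 1 array detected this probe, a 12 h control of SU-DHL-4. It was thus tested only through the group where it was high, and its p-value is a description. All 3 probes were higher with artesunate on both arrays of both lines, which is a description only. The call of ILMN_2387952 in Oci-Ly-2 was lost without control replicate 3 (0.995) or artesunate replicate 3 (1.11), and that of ILMN_1811330 in SU-DHL-4 without control replicate 3 (0.56), artesunate replicate 1 (0.70) or artesunate replicate 3 (0.98).

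**Figure D4:**
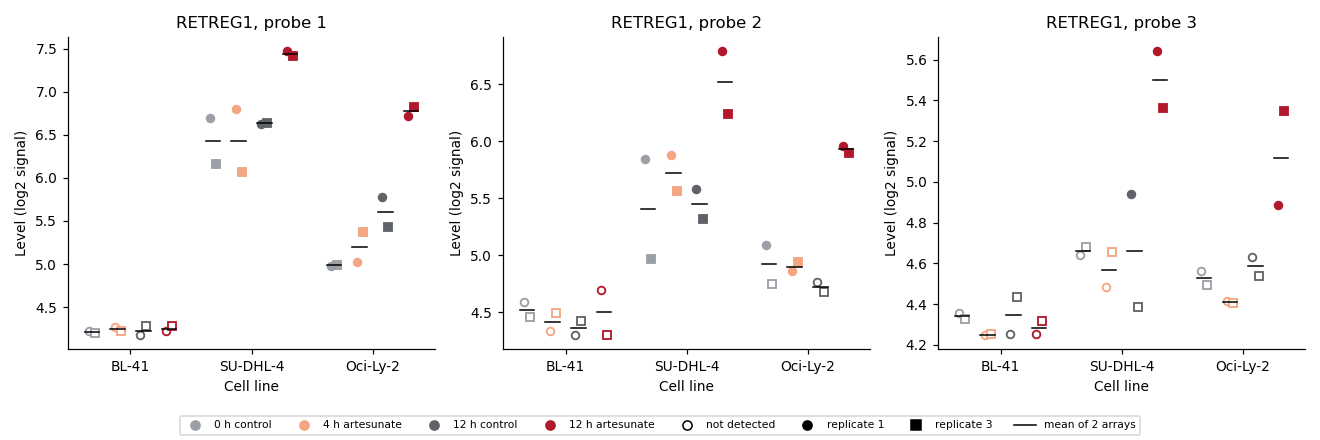
RETREG1 level (log2 signal, vertical axis, a different range in each panel) on each of the 24 arrays for its 3 probes, ordered from the brightest, with points for the 2 replicates, open where not detected, and lines for their means. No array of BL-41 detected RETREG1, and the 12 h artesunate arrays are above the 12 h controls in Oci-Ly-2 and SU-DHL-4 by each probe.

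CALCOCO2 and ATG12 were the other listed genes that passed at 12 h. CALCOCO2 encodes NDP52, a cargo receptor of the clearance of bacteria and mitochondria. It was not above background in the 12 h controls of any line. With artesunate it read 5.24 and 5.35 in BL-41 and 5.34 and 5.31 in Oci-Ly-2. These were at least 1.40-fold and at least 1.43-fold higher than the controls. The limma adjusted p values of the fitted differences, 0.00803 and 0.0018, do not belong to these bounds. In SU-DHL-4 1 of the 2 treated arrays detected CALCOCO2. Leaving out any single array of the contrast removed both calls, with limma adjusted p values from 0.0241 to 0.133 in BL-41 and from 0.0158 to 0.0230 in Oci-Ly-2. ATG12, a ubiquitin-like protein of the conjugation machinery, read 8.60 and 8.5 in the controls of Oci-Ly-2 and 9.23 and 9.25 with artesunate, a rise of 0.69 ± 0.15 (limma adjusted p = 0.00676). In BL-41 it read 8.53 and 8.57 against 9.12 and 9.22, a difference of 0.62 ± 0.15 that missed the threshold (limma adjusted p = 0.0232). For SU-DHL-4 the difference was 0.36 (limma adjusted p = 0.235). These ATG12 values are of its brighter probe, ILMN_2188204. The dimmer probe, ILMN_1673898, differed by 0.49 in Oci-Ly-2 without a call (limma adjusted p = 0.244). It differed by 0.60 for SU-DHL-4 and 0.45 for BL-41, also without a call (limma adjusted p = 0.178 and 0.384). The call for ATG12 thus rests on 1 of 2 probes. The call in Oci-Ly-2 was lost without control replicate 1 (0.74), control replicate 3 (0.64), artesunate replicate 1 (0.71) or artesunate replicate 3 (0.68). With the cell line as the replicate, 1 of the 67 genes passed by limma, BCL2L13, a mitophagy receptor, which rose by 0.58.

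The genes most like CCPG1 over the 12 group means, after the mean of each line was subtracted, were PCK2 (Pearson r = 0.992), TSC22D3 (0.988), ACAD11 (0.987), ASNS (0.986) and AKAP13 (0.981). PCK2 is the mitochondrial phosphoenolpyruvate carboxykinase, TSC22D3 a glucocorticoid-induced leucine zipper protein, ACAD11 an acyl-CoA dehydrogenase, ASNS asparagine synthetase and AKAP13 an anchor protein of protein kinase A. In BL-41, then SU-DHL-4, then Oci-Ly-2, the log2 differences at 12 h were 2.25, 2.78 and 2.23 for PCK2 and 1.01, 1.23 and 1.05 for ACAD11. They were 1.51, 1.56 and 1.34 for ASNS and 0.63, 0.72 and 0.64 for AKAP13, so a high r does not mean a change of like size. The TSC22D3 probe was detected on 12 of 24 arrays. CCPG1 itself was above background in Oci-Ly-2 only at 12 h with artesunate. Each gene was taken by its probe of highest r, which favours genes with several probes. Of the members, MAP1LC3B (r = 0.953, rank 64) and WIPI1 (r = 0.950, rank 73) came nearest. GABARAPL2 by its bright probe (r = -0.16) came last, and its dim probe was not ranked. The 12 points share their arrays and are dominated by the 3 group means at 12 h with artesunate, and the correlations are a description with no test.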

How the data were processed

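Total RNA of 3 lymphoma cell lines was hybridised to Illumina HumanHT-12 v4 BeadChips, 24 arrays in 12 groups of 2, grouped by the cell line, time and treatment in the labels. The authors deposited a non-normalized signal intensity and a detection p-value for every probe and array, and a second table of processed intensities, whose scale is linear and which differed from quantile-normalized signals by at most 0.0207 in log2. How the authors normalized is not given in the sources used for this work, and the submitters' processing notes name limma. Differences between near-background signals are compressed by the offset added below.

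The non-normalized intensities were background-corrected against negative controls inferred from the deposited detection p-values, given an offset of 16, quantile-normalized and put on the log2 scale with neqc (limma 3.58.1, R 4.3.3). Tested were the 25017 of 47319 probes detected at p under 0.05 on 2 or more arrays. Symbols came from the array's annotation, brought up to date by gene ID: 30112 probes had 1 symbol, 8 several and 17199 none. A single limma model with 12 group means and no covariate was fitted to all arrays (12 residual and 7.42 prior degrees of freedom), and another to the 6 means of the 12 h groups, with a term for cell line. Simulated data with known changes were used to test the fit.

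Named are all members, every listed autophagy gene that passed at 12 h or 4 h in a line, and the 5 genes most like CCPG1. BCL2L13 and MAP1LC3B2, outside this rule, were added once their values had been seen. A gene passed if any of its probes did, with the value of the passing probe of lowest change, otherwise of the brightest. Folds against groups without detection are lower bounds against the detection limit. CCPG1, the other members and the lists were chosen with earlier results of these data known. Alternatives were the brightest probe, the deposited processed values, median scaling, no or a stricter filter, a replicate block, separate fits per line, the mean of both controls as reference, and leaving out single arrays or lines. The replicate numbers were not taken to pair the samples. A search for LC3-binding motifs in proteins was planned and not run here.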

Additional observations from a re-analysis of the deposited data

How the results depend on the processing

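The count of members that passed at 12 h in BL-41 was 0 with median scaling and with each line fitted alone, and 0 to 1 without single arrays, against 1. In SU-DHL-4 it was 1, MAP1LC3B, with the deposited processed values and with the mean of both controls, against 0. In Oci-Ly-2 it was 1 with median scaling, 0 with the line fitted alone and 0 to 1 without single arrays, against 2. The remaining settings gave counts within 1.5 times. At 4 h, between controls and for response differences the count was 0 in every setting run. Between untreated lines the deposited processed values, with no background subtraction, gave 0 for BL-41 with SU-DHL-4, 2 for BL-41 with Oci-Ly-2 and 3 for SU-DHL-4 with Oci-Ly-2, against 2, 7 and 5, while the calls over all genes fell to 1829, 1833 and 1853 from 3392, 3403 and 3406. With the cell line as the replicate the count was 1 with the brightest probe, the deposited processed values, median scaling, the stricter filter, without BL-41 or without SU-DHL-4, and 0 with no filter or without Oci-Ly-2, against 2. The cause was not tested. Median scaling moved the median of all genes to -0.11 at 4 h in SU-DHL-4, 0.12 at 4 h in Oci-Ly-2, -0.21 between untreated BL-41 and SU-DHL-4 and -0.13 between untreated BL-41 and Oci-Ly-2.

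For OPTN in Oci-Ly-2 the rise at 12 h was 0.32 with the deposited processed values, 0.67 with median scaling and 0.68 with the line fitted alone, none past the threshold. ULK1 in Oci-Ly-2 passed with the deposited processed values, by 0.62 (ILMN_1705144) and 0.55 (ILMN_1735052). CALCOCO2 had no call with those values. Of 96 single values of members and named listed genes at 12 h and 4 h, 1050 recomputed values included 909 with the same direction and side of the threshold, 53 weaker, 10 stronger, 78 moved and 0 called values reversed. Of those that moved, 74 changed sign without a call in either setting.

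With the replicate number as a block, 1, 0 and 2 members passed at 12 h in BL-41, then SU-DHL-4 and then Oci-Ly-2, as without it, and no other count of members changed. RETREG1 in SU-DHL-4 lost its call by the probe ILMN_1811330 under the block (adjusted p = 0.0108) and gained it by ILMN_2283597 (1.07, adjusted p = 0.00518). Differences between arrays of equal number correlated at r of -0.18 to 0.28 (median 0.05) over the 66 pairs of groups. Probes near background, such as those of CCPG1 in Oci-Ly-2, OPTN in BL-41 and SU-DHL-4, and CALCOCO2, have a limited range for a difference to show.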
